A study of Mus musculus with 24 samples.

Results

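Interferon-stimulated genes are the genes that a cell switches on when it senses interferon, and 37 of them were followed here across 24 mouse mammary tumors. The members were chosen by name: every non-control probe whose gene name in the array files was on the list was taken, which gave 50 of 39429 probes. All 37 genes had a probe that passed the filter on low signal, among 20893 genes tested. The list holds 4 regulators of the response, 4 sensors of foreign nucleic acid, 3 genes of the ISG15 conjugation system, 3 IFIT genes, 5 OAS genes, 2 Mx genes, 2 PARP genes, 7 other antiviral effectors, and 7 guanylate-binding or immunity-related GTPases.

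The tumors were induced in female BALB/c mice, an obesity-resistant inbred strain, by the oral carcinogen 7,12-dimethylbenz[a]anthracene (DMBA), which every animal had received, so no group is free of carcinogen. Mice ate a low-fat diet (LFD) or a diet high in animal fat (HFD) throughout, or were switched after puberty from LFD to HFD (LFD-HFD) or from HFD to LFD (HFD-LFD), and the labels class each tumor as early or late in onset. The groups were HFD Early (3 tumors), HFD-LFD Early (3), HFD Late (6), HFD-LFD Late (3), LFD Late (5) and LFD-HFD Late (4). There were no early tumors on LFD or LFD-HFD, and whole tumors were measured, with tumor cells, stroma and leukocytes together. In whole tumors, fewer cells of a type and less RNA per cell cannot be told apart. The labels do not say whether any of the tumors came from the same mouse, and p-values measure the spread between these tumors.

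Interferons are secreted when a cell detects viral or misplaced nucleic acid, and they act through receptors whose kinases, of the Janus family, phosphorylate STAT proteins. Type I interferons drive a complex that holds STAT2 and IRF9 to the interferon-stimulated response element (ISRE) of target promoters, while interferon gamma acts through gamma-activated sites (GAS). In tumors the program reads out nucleic acid sensing inside cancer cells as well as cytokines from immune cells, and it serves antigen presentation and immune recognition.

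Promoter windows show the elements through which these genes are known to be driven, and they were searched for both motifs. RefSeq windows on GRCm38.p6, running from 250 bases before to 50 bases after a gene start, were matched by symbol for 26 of the 37 members. The others were Dhx58, Gbp6, Iigp1, Mx1, Mx2, Oas2, Parp9, Parp14, Rtp4, Usp18 and Zbp1. ISRE was searched as GAAA, any 2 bases and GAAA, on either strand, so that a match on the far strand reads TTTC, 2 bases and TTTC, and GAS as TTC, any 3 bases and GAA, which reads the same on both strands, and matches of both motifs may share letters. An ISRE match lay in the windows of 16 of these 26 members (61.5%) and of 3.99% of 27025 genes with a window. A GAS match lay in those of 7 members (26.9%) and of 9.55% of all genes. A match describes the letters of the window and does not show that a factor binds there.

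The stretches below carry the matches of members on which the results turn, read 5′ to 3′ on the strand of the gene, with ISRE matches in capitals. Isg15, Ifit1, Ifit3, Oas1a, Stat2, Igtp and Irgm2 were lower in early tumors, and Oas3 and Irgm1 are shown because they hold a match and did not pass the test. They lie at chr4:156200860-156200911 (Isg15, minus strand), chr19:34640770-34640828 (Ifit1, plus), chr19:34583358-34583431 (Ifit3, plus), chr5:120907526-120907560 (Oas1a, minus), chr10:128270261-128270300 (Stat2, plus), chr11:58199507-58199546 (Igtp, plus), chr11:58214898-58214937 (Irgm2, plus), chr5:120777710-120777749 (Oas3, minus) and chr11:48871421-48871465 (Irgm1, minus), all upstream of the start.
Isg15: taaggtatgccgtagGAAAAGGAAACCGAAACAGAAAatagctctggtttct
Ifit1: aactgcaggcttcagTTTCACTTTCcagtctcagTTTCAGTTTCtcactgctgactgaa
Ifit3: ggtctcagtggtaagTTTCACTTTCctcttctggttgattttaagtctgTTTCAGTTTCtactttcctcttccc
Oas1a: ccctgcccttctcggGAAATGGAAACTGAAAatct
Stat2: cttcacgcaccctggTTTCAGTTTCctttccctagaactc
Igtp: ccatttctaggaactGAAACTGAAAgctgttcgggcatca
Irgm2: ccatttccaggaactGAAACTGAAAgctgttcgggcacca
Oas3: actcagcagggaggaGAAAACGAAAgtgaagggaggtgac
Irgm1: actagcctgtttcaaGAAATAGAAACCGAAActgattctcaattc

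Isg15 held 3 overlapping matches, and Ifit1, Ifit3, Oas1a and Irgm1 held 2 each. Igtp and Irgm2 are neighbouring paralogs on chromosome 11. Irf1, which interferon gamma induces directly, held no ISRE match in its windows and a GAS match, shown in capitals, at chr11:53769909-53769948 on the plus strand.
Irf1: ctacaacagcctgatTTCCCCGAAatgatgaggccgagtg

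Of the 20 members with a window that were lower in early tumors, 13 held an ISRE match, and of the 6 that did not pass the test 3 did.

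Levels are log2 ratios of tumor over a common reference RNA pooled from mouse cell lines. The sample labels place the tumor RNA in the cyanine 5 channel, whereas the methods of the study name cyanine 5 as the dye of the reference, and the direction was taken from the labels. Between arrays, probes had a median SD of 0.63 (log2) for cyanine 5, against 0.26 for cyanine 3, and cyanine 5 lay further from the median array on 24 of 24 arrays. Transcripts of the Y-linked genes Ddx3y and Eif2s3y, which female tumors lack, had ratios of -5.05 to -2.78. Arrays were scanned in 3 sessions on 7 slides, and only slide 4 held both early and late tumors. On slides 6 and 7, which held late tumors of all 4 diets, 18.3% to 22.6% of spots lay in rows with dimmed cyanine 5 and were treated as missing, which touched 17 members. Each member was measured on 19 to 24 arrays. On the single arrays, the scanner software called 66.1% to 89.2% of probes well above background for tumor RNA. As markers of mammary epithelium and leukocytes, Krt8 was so called on 22 arrays, Krt5 on 20, Epcam on 16 and Ptprc on 23. Arrays on which the spot was flagged or dimmed were not counted, so these counts are not out of 24.

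The first comparison asked whether early tumors differ from late ones, over 6 early and 18 late tumors. The interferon-stimulated genes were lower in early tumors almost throughout: 30 of 37 members passed an adjusted p of 0.05 by limma, all of them lower in early tumors, where 9.96% of 20891 genes were lower and 16.3% were called in either direction. The median difference over the members was -1.37 log2 units, against -0.05 over all genes tested. All 37 estimates were below 0 and ranged from -2.18 for Usp18 to -0.08 for Ifitm3. With each array centred on its median in place of loess, 23 members passed, the median of all genes moved to 0.22 and that of the members to -1.01, and the estimates of Ifitm3 (0.28) and Irgm1 (0.093) were above 0. For 33 members every early tumor lay below the median of the late tumors. The same count was not taken over all genes, so it only describes the members.

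**Figure D1:**
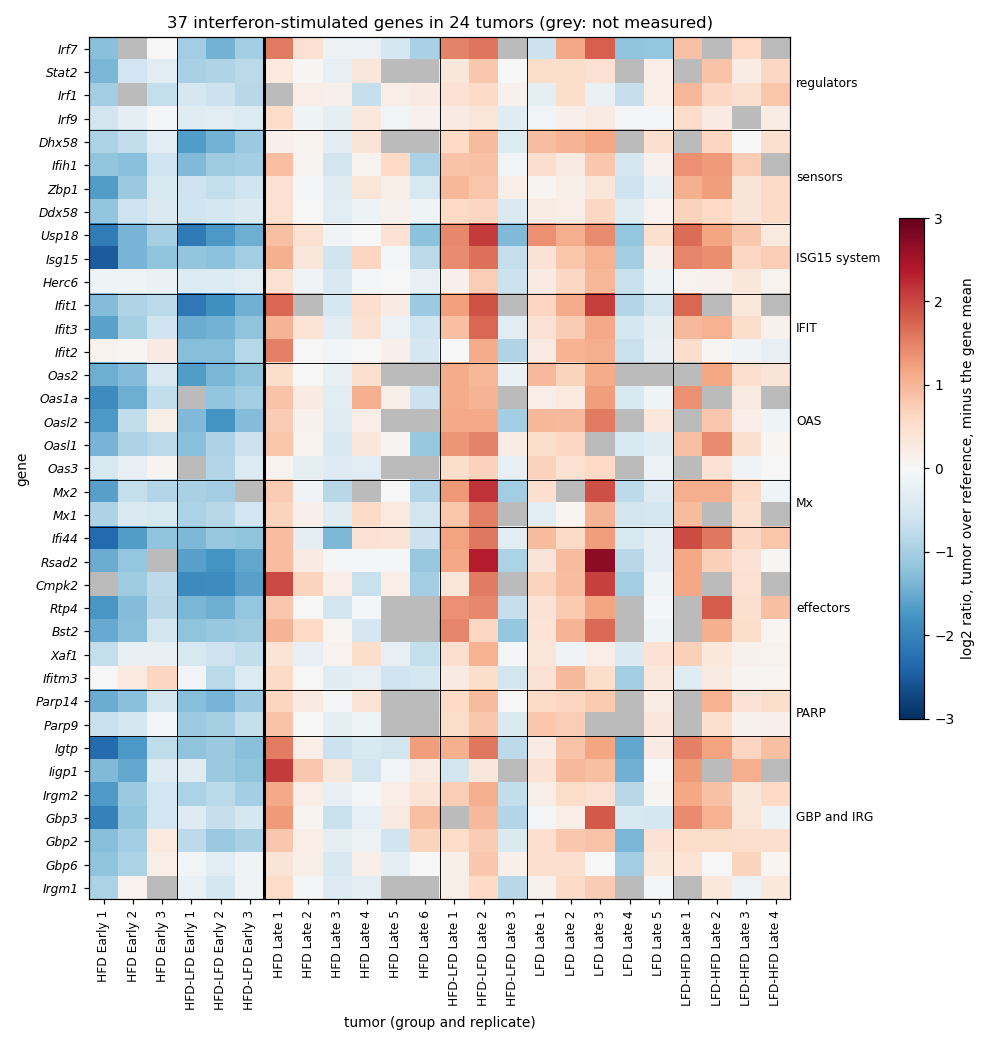
Log2 ratios of 37 interferon-stimulated genes (rows, by role) in 24 tumors (columns, by group), each gene centred on its mean over tumors, with blue for lower, red for higher and grey for not measured. The 6 early tumors, left of the thick line, are blue in most rows, and LFD Late replicate 4, HFD Late replicate 6 and HFD-LFD Late replicate 3 are the bluest of the late tumors.

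The regulators come first in the pathway. Stat2, the STAT protein particular to type I and type III interferon signaling, had ratios of -0.01, 0.77 and 1.02 in HFD Early and of 0.39, 0.45 and 0.54 in HFD-LFD Early tumors, while 14 late tumors ran from 1.12 over a median of 1.70 to 2.21. The groups did not overlap, and the difference was -1.18 ± 0.16 (SE; limma, adjusted p = 0.000203). Irf1, a transcription factor induced by interferon gamma, differed by -0.97 ± 0.21 (adjusted p = 0.00505). Irf9, the DNA-binding partner of STAT2, showed the smallest change among the called members, -0.45 ± 0.12 (adjusted p = 0.0157). Irf7, the factor that amplifies type I interferon production, had the widest spread of the regulators. It ran from -0.30 to 1.11 over 5 early tumors and from -0.10 over a median of 1.56 to 2.91 over 15 late ones, with 7 late tumors below the highest early one. Its difference of -1.26 ± 0.48 did not pass (adjusted p = 0.0726).

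All 4 sensors were lower in early tumors. Dhx58 (LGP2), a cytosolic RNA helicase that modulates RNA sensing, had ratios of 0.49, 0.68 and 1.12 in HFD Early and -0.25, 0.00 and 0.32 in HFD-LFD Early tumors. In 14 late tumors it ran from 1.03 over 1.92 (median) to 2.59. Only 2 of these were below the highest early tumor, and the difference was -1.48 ± 0.23 (adjusted p = 0.000555). Ifih1 (MDA5), the sensor of long double-stranded RNA, had the widest spread of the sensors and ran from 0.53 to 1.26 in early tumors (median 0.74) and from 0.92 over 2.40 to 3.25 in late ones. It differed by -1.46 ± 0.27 (adjusted p = 0.00145), with 1 of 17 late tumors below the highest early one. Zbp1, which senses Z-form nucleic acid and triggers necroptosis, differed by -1.15 ± 0.23. Ddx58 (RIG-I), which senses short double-stranded RNA with a triphosphate end, differed by -0.85 ± 0.17, but its dimmer probe, at -0.27 ± 0.27, did not pass in a fit over probes (adjusted p = 0.50).

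The ISG15 conjugation system held the largest change on the list. Usp18, the protease that removes ISG15 from proteins and also blocks signaling at the type I receptor, had ratios of -0.41, 0.29 and 0.69 in HFD Early and of -0.42, -0.03 and 0.22 in HFD-LFD Early tumors. In 18 late tumors it ran from 0.38 over 2.33 (median) to 3.79. Only HFD-LFD Late replicate 3 at 0.38, HFD Late replicate 6 at 0.46 and LFD Late replicate 4 at 0.53 lay below the highest early tumor, and the difference of -2.18 ± 0.41, 4.53-fold, had an adjusted p of 0.00158. Isg15, the ubiquitin-like protein itself, ran from -1.30 to 0.15 in early tumors (median -0.03) and from 0.15 over 1.83 to 2.85 in late ones. LFD Late replicate 4 was the single late tumor below the highest early one. Isg15 differed by -1.91 ± 0.35 (adjusted p = 0.00144), and its second probe, in a fit over probes, by -1.80 ± 0.34. Herc6, the mouse ligase that attaches ISG15, had a difference of -0.36 ± 0.18 that did not pass (adjusted p = 0.175), while its dimmer probe differed by -0.80 ± 0.18 and passed in the fit over probes.

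The IFIT proteins bind viral RNA that lacks the methylation of host caps. Ifit3 had ratios of -0.90, -0.31 and 0.11 in HFD Early and of -0.78, -0.71 and -0.52 in HFD-LFD Early tumors, and ran from 0.11 over 1.15 (median) to 2.41 in 18 late tumors. HFD Late replicate 6, at 0.11, was the only late tumor below the highest early one, and the difference was -1.62 ± 0.28 (adjusted p = 0.000835). Ifit1, with the largest SD over tumors of the 37 members (1.32), ran from -0.15 to 1.18 in early tumors (median 0.62) and from 0.91 over 2.56 to 4.06 in 14 late ones, and it differed by -2.01 ± 0.43 (adjusted p = 0.00515). Ifit2 had means of 0.31 in HFD Early and 0.35 in HFD Late, and of -0.97 in HFD-LFD Early and 0.24 in HFD-LFD Late, and the pooled difference of -0.67 ± 0.30 did not pass (adjusted p = 0.126).

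The OAS enzymes make a second messenger that activates an RNase and so stops protein synthesis in infected cells. Oas2 had ratios of 1.19, 1.35 and 2.16 in HFD Early and of 0.97, 1.29 and 1.45 in HFD-LFD Early tumors, and 13 late tumors ran from 2.44 over 3.19 (median) to 3.80. Every early tumor lay below every late one, and the difference was -1.83 ± 0.22 (adjusted p = 9.73e-05). Oasl2, which had the widest spread of the family, ran from 0.56 over 1.05 to 2.52 in early and from 1.35 over 2.90 to 3.91 in late tumors, with a difference of -1.60 ± 0.33 (adjusted p = 0.00369). Oas1a and Oasl1 were lower by 1.68 ± 0.30 and 1.35 ± 0.29 log2 units, and Oas3 had a difference of -0.53 ± 0.20 that did not pass (adjusted p = 0.0758).

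Both Mx GTPases, which trap viral nucleoproteins, passed the test. Mx1 is defective as a protein in most inbred laboratory strains, and its transcript differed by -0.98 ± 0.27 (adjusted p = 0.0166). Mx2 ran from 0.22 over 0.85 (median) to 1.12 in 5 early tumors and from 0.79 over 2.09 to 4.02 in 16 late ones, and differed by -1.38 ± 0.44 (adjusted p = 0.0370). Both PARP genes, which encode ADP-ribosyltransferases that interferon induces, were lower too. Parp14 had the smallest p of the list: 0.46, 0.70 and 1.40 in HFD Early, 0.67, 0.56 and 0.87 in HFD-LFD Early, and 1.88 over 2.51 (median) to 3.00 in 14 late tumors. The groups did not overlap, and the difference of -1.67 ± 0.16 (95% interval -2.01 to -1.34) had an adjusted p of 7.83e-06. Parp9, the partner of Dtx3l, differed by -0.98 ± 0.20 (adjusted p = 0.00438), but its dimmer probe, at -0.20 ± 0.11, did not pass in the fit over probes (adjusted p = 0.221).

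Among the other effectors, 6 of 7 were lower in early tumors. Rtp4 ran from 0.47 over 0.87 (median) to 1.39 in early and from 1.53 over 2.85 to 4.04 in 14 late tumors, without overlap, and differed by -1.87 ± 0.31 (adjusted p = 0.000956). Ifi44 ran from 0.64 over 1.69 to 1.84 in early and from 1.62 over 3.58 to 4.92 in late tumors and differed by -1.98 ± 0.37 (adjusted p = 0.00153). Rsad2 (viperin), a radical enzyme that makes a chain-terminating nucleotide, ran from -3.30 over -3.08 to -2.67 in 5 early and from -2.65 over -1.19 to 1.17 in 18 late tumors. It did not overlap, though the margin between the highest early and the lowest late tumor was narrow, and it differed by -1.95 ± 0.44 (adjusted p = 0.00582). Its chromosomal neighbour Cmpk2, a nucleotide kinase, differed by -1.94 ± 0.43, Bst2 (tetherin), which holds budding virus at the cell surface, by -1.61 ± 0.31, and the proapoptotic Xaf1 by -0.67 ± 0.18. Ifitm3, which blocks viral entry, stood apart. It ran from 0.36 over 1.13 to 1.81 in early and from 0.13 over 1.24 to 2.13 in late tumors, and 17 of 18 late tumors lay below the highest early one (difference -0.08 ± 0.23, 95% interval -0.56 to 0.41, adjusted p = 0.851).

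The guanylate-binding and immunity-related GTPases, which attack the vacuoles of intracellular pathogens and respond strongly to interferon gamma, were lower for 5 of 7 members. Irgm2 ran from -0.84 over -0.13 (median) to 0.29 in early and from 0.04 over 1.23 to 2.03 in late tumors, with LFD Late replicate 4 and HFD-LFD Late replicate 3 below the highest early tumor, and differed by -1.37 ± 0.24 (adjusted p = 0.00110). Igtp, the member of this group with the widest spread, had ratios of -1.11, -0.53 and 0.43 in HFD Early, of -0.02, 0.07 and -0.07 in HFD-LFD Early, and from -0.37 over 1.93 to 2.76 in late tumors. It differed by -1.86 ± 0.39 (adjusted p = 0.00318). Gbp2, Gbp3 and Iigp1 differed by -1.08 ± 0.27, -1.21 ± 0.34 and -1.38 ± 0.36, and the dimmer probe of Iigp1, at -0.92 ± 0.50, did not pass in the fit over probes (adjusted p = 0.208). Gbp6 (-0.56 ± 0.21, adjusted p = 0.0680) and Irgm1 (-0.45 ± 0.22, adjusted p = 0.157) did not pass. The dimmer probe of Gbp6 passed in the fit over probes with -1.05 ± 0.26, and that of Irgm1 had the opposite sign, 0.26 ± 0.38.

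**Figure D2:**
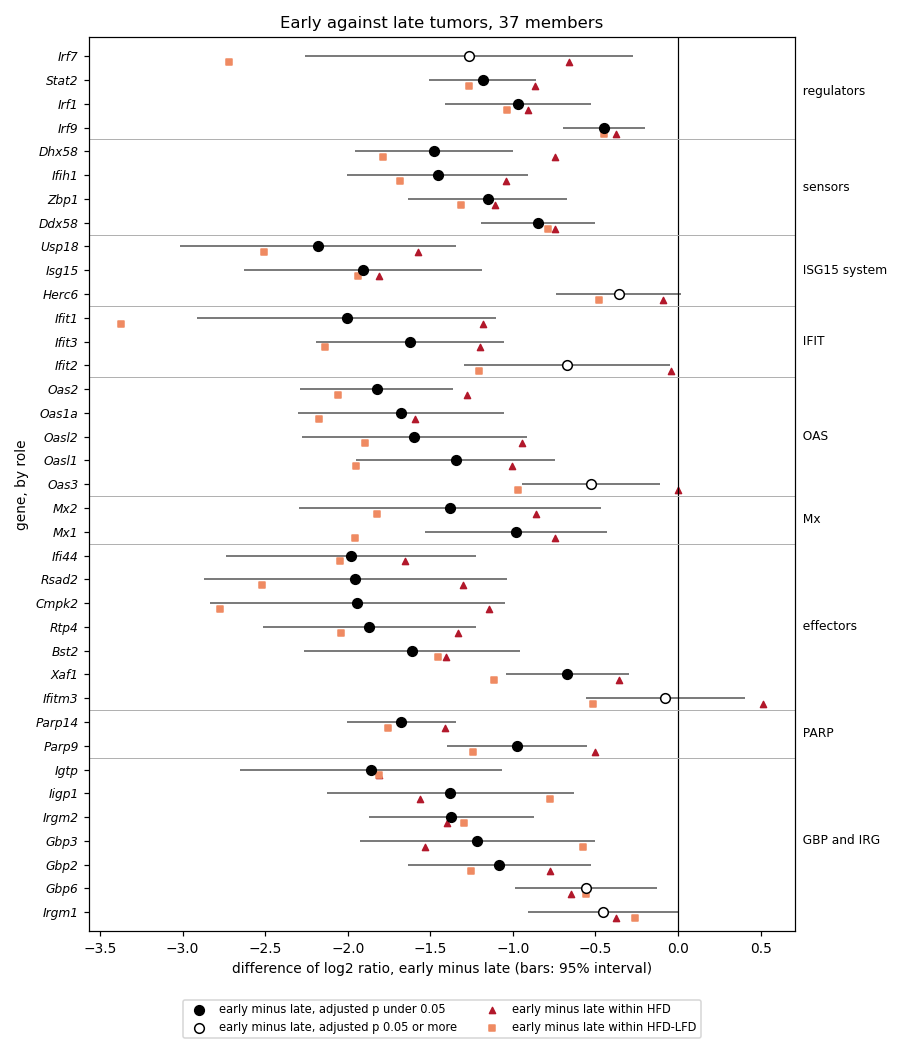
Difference of the log2 ratio, early minus late, for the 37 members by role, with 95% intervals from limma, filled where the adjusted p was under 0.05, and the early minus late difference within HFD (triangles) and within HFD-LFD (squares). The 30 filled points run from -2.18 to -0.45, and Ifitm3 alone has an estimate near 0.

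Of all members, 6 had every measured early tumor below every measured late one (Oas1a, Oas2, Parp14, Rsad2, Rtp4 and Stat2), where 0.56% of genes did. Of these, Oas2, Parp14, Rtp4 and Stat2 were not measured on slide 6, because their spots lay in its dimmed rows. That slide held LFD Late replicate 4 and HFD Late replicate 6, which were among the lowest late tumors for the members measured there. Rsad2 was not measured in HFD Early replicate 3, the early tumor with the highest member mean, and Oas1a was not measured in HFD-LFD Early replicate 1 or in HFD-LFD Late replicate 3, another low late tumor.

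**Figure D3:**
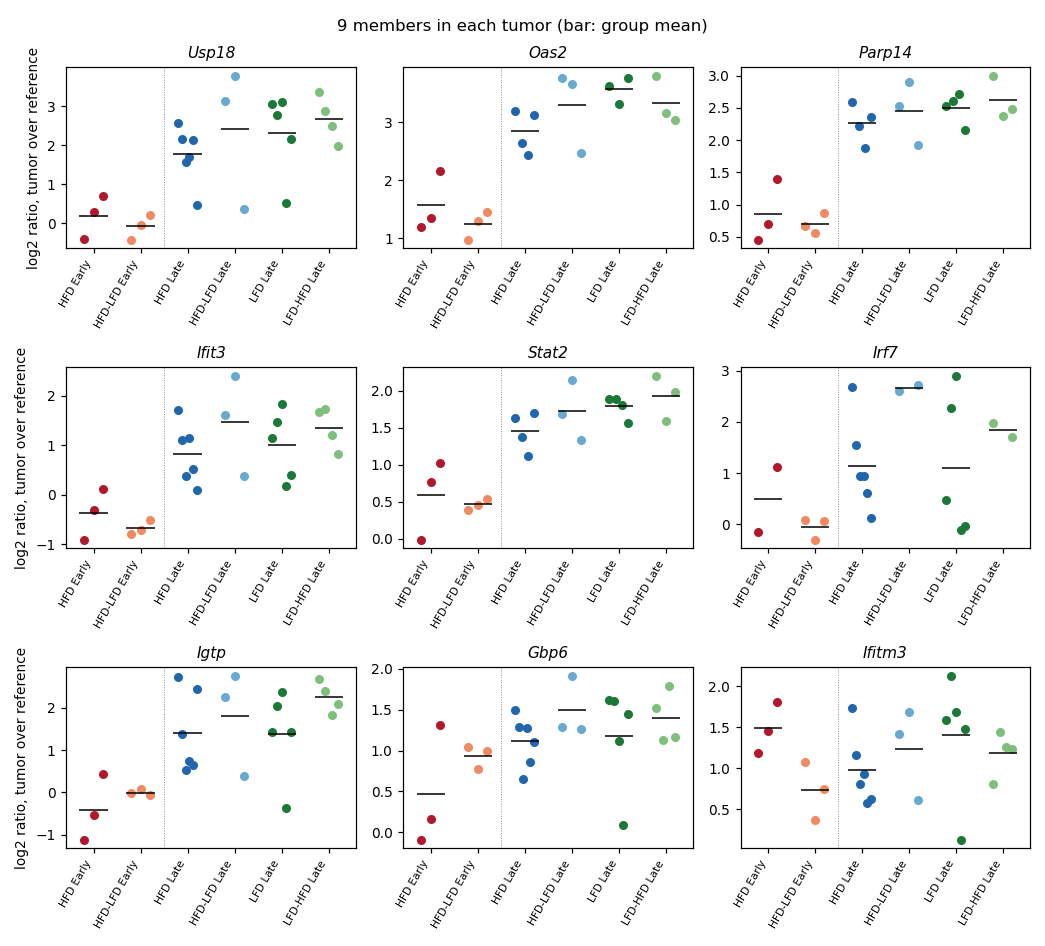
Log2 ratio of tumor over reference for 9 members in each tumor, by group, with bars at group means and early groups left of the dotted line. Parp14, Oas2 and Stat2 separate early from late tumors, Usp18, Ifit3 and Igtp overlap through a few low late tumors, and Irf7, Gbp6 and Ifitm3 overlap widely.

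Early tumors came from diets that began with HFD, so early and late were also compared within each diet that had both, as contrasts of group means. Within HFD, where 3 early faced 6 late tumors, 11 members passed and all were lower in early tumors, against 6.62% of 20880 genes that were lower, and the median difference over the members was -1.01. They were Parp14 (-1.41 ± 0.26, adjusted p = 0.00370), Zbp1 (-1.11 ± 0.28), Irgm2 (-1.40 ± 0.36), Oas1a (-1.59 ± 0.40), Oas2 (-1.28 ± 0.32), Isg15 (-1.81 ± 0.50), Stat2 (-0.86 ± 0.24), Ifi44 (-1.65 ± 0.49), Ddx58 (-0.74 ± 0.23), Irf1 (-0.91 ± 0.28) and Igtp (-1.81 ± 0.58, adjusted p = 0.0470). Parp14, Oas2 and Stat2 were not measured in HFD Late replicates 5 and 6 and rest on 4 late tumors. Of these, replicate 6 had the lowest member mean of HFD Late. Irf1 rests on 2 early and 5 late tumors. With arrays centred on their median Ifitm3 was the only member called within HFD, and it was higher in early tumors, and with dimmed rows kept 5 members were called. Without HFD Early replicate 1 or without HFD Early replicate 2 only 1 member passed. The count was 7 without HFD Early replicate 3, 7 without HFD Late replicate 1, and 17 without HFD-LFD Late replicate 3, which enters through the shared spread.

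Within HFD-LFD, where 3 early faced 3 late tumors, 7 members passed and all were lower in early tumors, while 0.294% of 20754 genes were lower there. The median difference was -1.68. Parp14 differed by -1.76 ± 0.27 (adjusted p = 0.00857), Dhx58 by -1.78 ± 0.30, Oas2 by -2.06 ± 0.34, Stat2 by -1.26 ± 0.25, Mx1 by -1.96 ± 0.42, Ifit3 by -2.14 ± 0.48 and Oasl1 by -1.95 ± 0.45 (adjusted p = 0.0443). Mx1 was not measured in HFD-LFD Late replicate 3, the late tumor of this diet with the lowest member mean. Its difference rests on 2 late tumors. The count rested on few tumors: it was 0 without HFD-LFD Early replicate 1, 1 without HFD-LFD Early replicate 2 or HFD-LFD Late replicate 2, 3 without HFD-LFD Early replicate 3 or HFD-LFD Late replicate 1, and 19 without HFD-LFD Late replicate 3. Leaving out tumors of other groups gave 4 without HFD Late replicate 2 and 11 without LFD Late replicate 3, LFD Late replicate 4 or HFD Late replicate 1. Parp14, Oas2 and Stat2 passed within both diets, without values for HFD Late replicates 5 and 6.

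The 2 onset changes were then tested against each other. None of the 37 members differed at an adjusted p of 0.05 (limma interaction contrast), and 4 did at an unadjusted p of 0.05, where 7.92% of genes did. Their count lay near the share of all genes. These were Dhx58, Oas3, Mx1 and Ifit1, each with the more negative onset difference in HFD-LFD. The difference for Dhx58 was 1.04 ± 0.41, with an unadjusted 95% interval of 0.17 to 1.91. Mx1 and Ifit1 were not measured in HFD-LFD Late replicate 3, the lowest late tumor of that diet. Dhx58 and Oas3 were not measured in HFD Late replicates 5 and 6. Also missing were Oas3 in HFD-LFD Early replicate 1 and Ifit1 in HFD Late replicate 2.

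**Figure D4:**
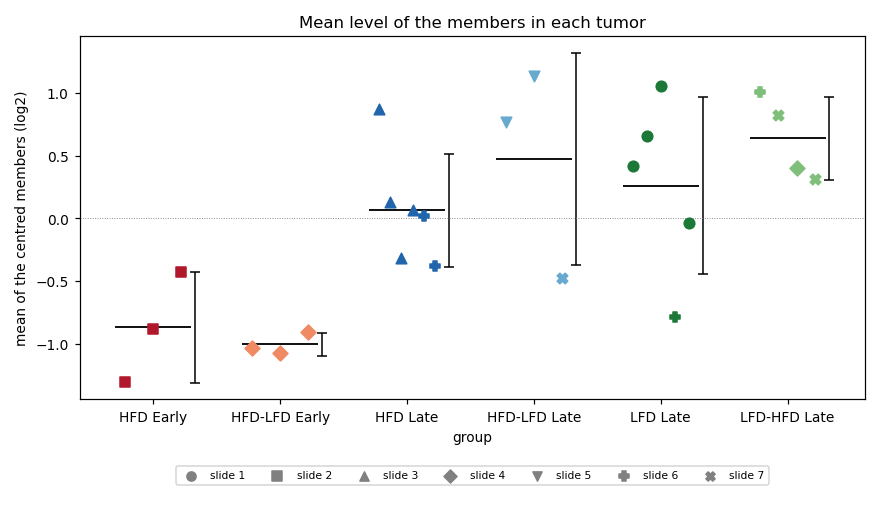
Mean over the members of the centred log2 ratio in each tumor, by group, with bars for the group mean and SD and the marker shape for the slide. Early tumors lie between -1.30 and -0.43 and late tumors between -0.78 and 1.13.

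Averaged over the members, each centred on its mean, early tumors were at -0.94 ± 0.29 (SD, n = 6) and late tumors at 0.31 ± 0.58 (SD, n = 18). HFD-LFD Early tumors were tightly grouped at -1.01 ± 0.09 (SD, n = 3), whereas HFD Early tumors ran from -1.30 over -0.88 to -0.43. The lowest late tumors were LFD Late replicate 4 at -0.78, HFD-LFD Late replicate 3 at -0.48 and HFD Late replicate 6 at -0.38, all from slides 6 and 7, followed by HFD Late replicate 3 of slide 3 at -0.32. Over the 14 members measured on every array, early tumors took the ranks 1 to 4, 6 and 9 from below, and LFD Late replicate 4 rank 5.

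Slide and scan session follow the groups, and the values were therefore taken within each. In scan session 1, with 3 HFD Early tumors against HFD Late and LFD Late tumors, 17 members were lower in early tumors, against 3.68% of genes, and the median over the members was -1.30. In session 2, with 3 HFD-LFD Early tumors against HFD-LFD Late and LFD-HFD Late tumors, 32 members were lower, against 6.1% of genes, and the median was -1.90. On slide 4 the single late tumor, LFD-HFD Late replicate 3, lay above all 3 early tumors for 32 of 33 members measured on these 4 arrays, the exception being Irgm1, where 40.7% of genes did. Its median distance from the mean of the early tumors was 1.46 log2 units over these members and 0.04 over all genes. This rests on 1 late tumor, which came from another diet than the early tumors of the slide. The members also vary together, so they are not separate observations. That late tumor had the highest mean of centred adipocyte marker genes of all tumors, 3.68. With slide as a fixed block 0 members passed an adjusted p of 0.05 (limma), where 0.388% of genes were lower, and 21 were lower at an unadjusted p of 0.05, against 8.36% of genes, with a median of -1.43, and slide 4 is then the only source of the difference. Without slide 2, which held all HFD Early tumors, 18 members passed, and without slide 4, which held all HFD-LFD Early tumors, 19 did. The share of all genes in these settings is not given, so the counts only describe the members. Across slides, the slide and the onset group cannot be told apart.

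Diet itself was compared as HFD against LFD, over 9 HFD and 5 LFD tumors. No member passed an adjusted p of 0.05 (limma), and 7 passed an unadjusted p of 0.05, against 4.71% of genes. They were Dhx58, Oas3, Oas2, Oasl2, Parp9, Rtp4 and Stat2, and Dhx58 had the smallest p with a difference of -1.15 ± 0.26 (adjusted p = 0.761). All 37 estimates were below 0 and their median was -0.55, but 3 of the 9 HFD tumors were the early ones described above. Among late tumors alone, the 4 diets were compared by a moderated F test, in which 1.77% of genes and none of the members passed an adjusted p of 0.05. At an unadjusted p of 0.05, 7 members and 19.8% of genes passed, with Zbp1 (F = 5.63, adjusted p = 0.0996) and Irf1 (F = 5.52, adjusted p = 0.111) first. Group means of the member average were 0.64 ± 0.33 in LFD-HFD Late (SD, n = 4), 0.47 ± 0.85 in HFD-LFD Late (n = 3), 0.26 ± 0.70 in LFD Late (n = 5) and 0.06 ± 0.45 in HFD Late (n = 6), and neighbours in this order lay within 1 SD of each other.

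The members varied together from tumor to tumor. Over 666 pairs of members the median Pearson r was 0.82, and 96.4% of pairs were above 0.5, while the median r of members with 20698 genes outside the lists was 0.04. The points share libraries and slides, and r is given as a description. After the group means were taken off the median was 0.73, and over the 18 late tumors 0.72, so that the shared variation was not only that between early and late tumors. Usp18, at a median r of 0.90 with the other members, Ifit3 (0.90) and Rtp4 (0.90) followed the rest most closely. Ifitm3 (0.50), Ifit2 (0.65) and Gbp6 (0.65) followed it least.

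**Figure D5:**
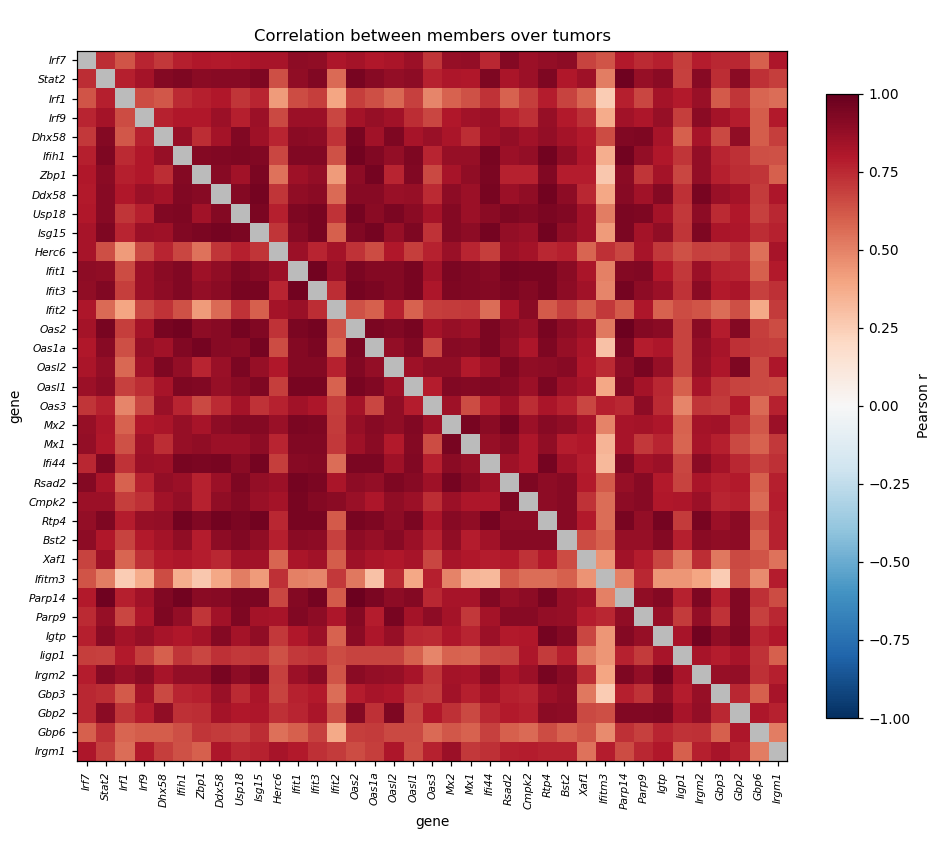
Pearson r over tumors between each pair of the 37 members, ordered by role, with darker red for r nearer 1 and the diagonal in grey. Most cells are dark, and the rows of Ifitm3, Ifit2, Irf1 and Gbp6 are paler.

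Correlation was tested for 4 pairs, each a regulator with a target or neighbours of a family, by permutation (100000 resamples, two-sided). Values were permuted over all tumors without regard to group or slide, so the p-values include the difference between early and late tumors. The pairs were chosen with earlier results of these data known, and 96.4% of all member pairs had r above 0.5. The p-values therefore do not set these pairs apart from other members, and r describes them only. Irf7 and Isg15 had r = 0.83 and rho = 0.84 over 20 tumors (permutation p = 3e-05 and 2e-05, adjusted over the 4 pairs 4e-05 and 2.67e-05). Ifit1 and Ifit3 had r = 0.97 and rho = 0.98 over 20 tumors, and Igtp and Irgm2 r = 0.97 and rho = 0.97 over 24, each with permutation p of 1e-05, the smallest the resamples can give, and 2e-05 after adjustment. Irf1 and Gbp2 had r = 0.72 and rho = 0.72 over 22 tumors (permutation p = 0.00029 and 0.00022, unchanged by adjustment). Without the 2 tumors farthest from the median of the first gene r was 0.80, 0.97, 0.96 and 0.62 in the order given. Among late tumors alone, a setting that was not planned, r was 0.84, 0.96, 0.93 and 0.57 in the same order. Within scan session 1 r was 0.66, 0.96, 0.98 and 0.63, within session 2, of 6 tumors, 0.997, 0.994, 0.999 and 0.988, and within session 3 0.92 for Igtp and Irgm2 and 0.87 for Irf1 and Gbp2, where the other 2 pairs had too few tumors. Within session 1 the pair of Irf1 and Gbp2 did not pass (exact permutation p = 0.0627 over 9 tumors).

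Other genes of the pathway were read from the same fit, in which 9.96% of 20891 genes were lower in early tumors. Of 6 receptor chains, 3 were lower in early tumors: Ifnar2, the second chain of the type I receptor (-0.81 ± 0.15, adjusted p = 0.00135), Il10rb, a chain shared by the interferon lambda receptor (-0.56 ± 0.13, adjusted p = 0.00662), and Ifngr1, the ligand-binding chain of the interferon gamma receptor (-0.83 ± 0.22, adjusted p = 0.0136). Ifnar1 did not pass (-0.23 ± 0.21, adjusted p = 0.464). Of 4 kinases and STATs tested, Stat3 was lower (-0.53 ± 0.16, adjusted p = 0.0236), and Jak1 was at -0.06 ± 0.08 (adjusted p = 0.603). The 18 genes of sensing and induction had a median difference of -0.12. Of these, 3 were lower, Tmem173 (STING, -0.62 ± 0.16), Trex1 (-0.60 ± 0.18) and Tlr9 (-0.31 ± 0.10). None of 6 negative regulators passed, with 1 at an unadjusted p of 0.05.

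Of 9 interferon genes on the list 3 were tested, and 1, Il28b, was lower (-0.28 ± 0.09, adjusted p = 0.0370), where 9.96% of all genes were lower. Ifng and Ifnb1 did not pass the signal filter and were read from a fit without it. The difference of Ifng was -0.34 ± 0.17 (adjusted p = 0.210), and Ifnb1 was well above background on 9 of 23 arrays.

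Of 44 other interferon-stimulated genes tested, 23 were lower in early tumors, where 9.96% of all genes were lower. None was higher, and their median was -0.75. The smallest p among them belonged to Uba7, the activating enzyme of ISG15 (-1.33 ± 0.19, adjusted p = 0.000235), followed by Tor3a (-1.18 ± 0.18), Nmi (-1.39 ± 0.22), Samd9l (-1.19 ± 0.18), Gbp9 (-1.02 ± 0.16), Znfx1 (-1.15 ± 0.18), Eif2ak2, the kinase PKR (-0.87 ± 0.16), Rnf213 (-1.22 ± 0.23) and Ifi203 (-1.17 ± 0.22). By Pearson r with the mean of the members over tumors, the most alike of 20442 genes outside the list were Ifit3b (0.99), Phf11d (0.98), Eif2ak2 (0.95), Phf11a (0.95), Trim30a (0.95), Dtx3l (0.94), Znfx1 (0.94), Gbp9 (0.93), Gm9706 (0.92) and Trim30d (0.92), each over 18 to 24 tumors. Ifit3b is a near-identical copy of Ifit3, and their probes may read the same transcript. Of these 10 genes, 6 were on the list of other interferon-stimulated genes.

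Markers of cells that could carry the signal were set beside these values. Over all genes, 9.96% were lower in early tumors and 1332 of 20891 were higher at an adjusted p of 0.05. Of 5 NK and cytotoxic cell genes tested, 4 were lower in early tumors, Nkg7 (-0.91 ± 0.17), Gzmb (-0.91 ± 0.19), Gzma (-1.79 ± 0.52) and Il2rb (-0.63 ± 0.19), and their list mean ran from -0.94 to -0.33 in early and from -0.30 to 0.93 in late tumors, while Prf1 did not pass (-0.11 ± 0.14). None of 8 T cell genes passed an adjusted p of 0.05. At an unadjusted p of 0.05, 6 were lower, where 19.6% of genes were lower, with Cd3e at -0.98 ± 0.34. Lck (0.81 ± 0.44) and Cd5 (0.26 ± 0.39) had estimates above 0 and did not pass. Of 9 macrophage genes and 4 genes of all leukocytes none passed an adjusted p of 0.05, with medians of 0.01 and -0.23, and at an unadjusted p of 0.05 1 and 2 did. Of 7 proliferation genes 4 were higher in early tumors, led by Top2a (1.19 ± 0.24), and their list mean ran from 0.21 to 1.11 in early and from -1.07 to 0.98 in late tumors. Across tumors r with the member mean was 0.71 for the NK and cytotoxic list and -0.72 for the proliferation list, and among the 18 late tumors 0.24 and -0.53. Of the other lists, 1 of 5 plasmacytoid dendritic cell genes was higher (Tcf4, 1.27 ± 0.25). Siglech (-0.26 ± 0.15), Ccr9 (-0.48 ± 0.26) and Spib (-0.53 ± 0.35) had estimates below 0, Ly6d (0.37 ± 0.54) had one above 0, and none of these passed. In addition, 1 of 6 endothelial genes (Vwf) and 1 of 6 fibroblast genes (Dcn) were lower. None of the 4 B cell, 5 neutrophil, 5 adipocyte, 6 luminal and 7 basal or squamous epithelial genes passed. The luminal genes had a median of -0.72, with 4 of 6 estimates below 0. The basal or squamous genes had a median of 0.87, with 1 of 7 below 0. The study reports adenosquamous histology more often among short-latency tumors, and histology was not used in these comparisons. The part of the marked cell types, or of histology, in the lower interferon-stimulated genes was not tested.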

How the data were processed

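Tumor RNA of 24 tumors was hybridised with a common reference RNA to 2-color Agilent 4x44K arrays. The intensity values, as deposited by the authors, are the mean brightness of each spot and the median of its local background in each dye from Agilent Feature Extraction (11.0.1.1 per the file headers, 8.5.1.1 per the labels), and a background-subtracted intensity. The deposited log10 values are the scanner software's processed ratio of cyanine 5 to cyanine 3, used as an alternative. Probe positions are on mm9. The normalization, filter and imputation of the study are not in these files.

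The analysis used limma 3.58.1 under R 4.3.3: normexp with an offset of 50, loess within arrays, spots with an outlier flag (2.62% to 5.36% per array) and rows with dimmed cyanine 5 set missing, spots of a probe averaged, and probes kept where, in each dye, the background-subtracted signal passed 10 on 80% or more of the arrays that measured them. The brightest probe stood for each gene, and missing values stayed missing. Probes were named through RefSeq by accession (27234), symbol (3576) or older symbol (565), while 8054 stayed under their deposited name. Tests were limma fits with Benjamini-Hochberg adjustment over all genes, and groups came from the diet and onset labels. The alternatives were other background corrections, normalizations, filters, probe rules and variance models, batch terms, and each array left out. In simulated data of 20893 genes, early against late recovered 75% of 100 changes of 1 log2 unit and 99% of 100 changes of 2, with 5.43% of calls false. The simulated noise was independent between genes and held no slide or session effect. These rates therefore check the fit and do not give the error rate in the real arrays. The number of arrays limits the precision.

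The members, their role lists, the pathway and marker lists and the pairs were chosen with earlier results of these data known. All members are named; full values are given for the 10 called members of smallest p, the member of largest SD in each role, and, from other lists, the called genes of smallest p. No pairing of tumors was used. 1 gene covered by the rule for named genes is not reported here.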

Additional observations from a re-analysis of the deposited data

Results flagged for a closer look

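In groups of 4 to 10 tumors, a tumor was singled out where its gap to the nearest tumor was large against the range of its group by Dixon's criterion. Of 91 combinations of member and group tested, 4 were singled out, and chance alone singles out about 1 in 20. Gbp2 was 0.52 in LFD Late replicate 4, against 2.32 in the next lowest tumor of its group. Irf1 was 0.90 in HFD Late replicate 4, against 1.73 in the next lowest. Ifit2 was 1.68 in HFD Late replicate 1, against 0.32 in the next highest. Herc6 was 1.22 in LFD-HFD Late replicate 3, against 0.996 in the next highest.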

How the results depend on the processing

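The count of members lower in early tumors, 30, was 19 with dimmed rows kept, 17 within scan session 1 and 0 with slide as a fixed block, and between 23 and 35 under the other alternatives of background correction, normalization, filters, probe rules, variance models and batch terms. Settings chosen after seeing the data gave 18 without slide 2 and 19 without slide 4. The share of all genes is given above only for the main fit, the scan sessions and the fixed block. Counts under the other settings therefore only describe the members. Over the arrays left out in turn it ran from 28 to 32 and the median over the members from -1.46 to -1.24, and 28 of the 30 called members were called each time. Over 43 alternatives and 37 members, not counting slide as a fixed block, under which all 30 calls were lost, 79 values lost their call, 28 gained one and 8 changed sign. Ifitm3 was above 0 with median centring (0.28), dimmed rows kept (0.40), within session 1 (0.047) and without slide 4 (0.31), and ran from -0.22 to 0.072 over the arrays left out, above 0 without HFD-LFD Early replicate 2. Irgm1 was above 0 with median centring (0.093), dimmed rows kept (0.47) and the mean over probes (0.11).

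Within HFD, where 11 members were called, the count was 1 with median centring and 1 with slide as a random block, 5 with dimmed rows kept and 5 with the tumor channel alone, 18 without the slides with dimmed rows, 21 at an unadjusted p and 24 with array weights. Leaving out arrays gave 1 to 17. Within HFD-LFD, where 7 were called, it was 1 with dimmed rows kept and 1 with slide as a random block, 2 with median centring, 4 with the scanner's own ratio and 4 with the tumor channel alone, 17 with scan session as a block, 23 without the slides with dimmed rows, 31 with array weights and 31 at an unadjusted p. Leaving out arrays gave 0 to 19. At an unadjusted p, 3613 of 20880 genes were lower in early tumors within HFD, and 1663 of 20754 genes within HFD-LFD. For the difference of the onset changes, HFD against LFD and late tumors by diet, no member was called with any array left out (0 to 0), an unadjusted p gave 4, 7 and 7, and array weights gave 5 among late tumors. Apart from the main fits and the unadjusted p, the share of all genes is not given for the settings of these comparisons. Those counts, within the diets and among late tumors, therefore only describe the members. The correlation of Irf1 with Gbp2 was 0.63 within session 1 and did not pass there. The cause of these shifts was not tested. No paired analysis was possible because the replicate numbers were given in accession order and no label ties tumors of different groups to each other. Signal over background and the number of arrays limit what is shown, above all within the diets, and members not measured on slides 6 and 7 rest on fewer late tumors.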
